A study of Mus musculus with 2 samples.

Results

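Type I interferon effector genes are the genes whose products carry out the antiviral response of a cell. They were followed here in the temporomandibular joint (TMJ) of mice after injection of PBS or of complete Freund's adjuvant (CFA), an oil emulsion with killed mycobacteria that inflames the joint. The genes were chosen by symbol: *Isg15*, *Ifit1*, *Ifit2*, *Ifit3*, *Rsad2*, *Oasl2*, *Usp18*, *Mx1*, *Ifi44* and *Bst2*. Of these 10 symbols, 9 matched a row among the 32285 genes of the count tables, and *Mx1* was not analysed here. The study made 2 single-cell RNA sequencing libraries, 1 per condition. Both came from wild-type (WT) C57BL/6 mice labelled 8 to 10 weeks old. The PBS TMJ library was set against the CFA TMJ library, and per the methods the mice were female, were injected on both sides with 10 µL at 8 weeks of age (CFA at 5 mg/mL) and were examined 3 weeks later. The digested tissue took in the condyle and disc with the temporal bone, ligament and muscle around them (n = 3 in the methods, with 1 library for each group), and CD45+ immune cells were depleted with magnetic beads. Levels in immune cells therefore describe those cells that the depletion left.

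Each captured RNA molecule was tagged with its own barcode, a unique molecular identifier (UMI), and UMIs were counted. Barcodes with at least 500 genes, at most 10% mitochondrial UMIs and at most 1% hemoglobin UMIs were kept, which left 2667 cells of the PBS library (27201994 UMIs) and 4014 cells of the CFA library (44432717 UMIs). The hemoglobin limit removed 3178 PBS barcodes and 339 CFA barcodes that passed the other limits. The libraries shared 10 barcode sequences, and 3 PBS and 8 CFA cells carried them. The cells formed 35 clusters. Of these, 28 clusters took 17 cell class names from marker genes and 7 stayed unnamed. Every name is written with the ending "-like", since it rests on markers alone. Levels are counts scaled to depth (CPM), the UMIs of a gene per 1000000 UMIs of all cells of a class in 1 library. With 1 library per condition no test between PBS and CFA was possible, no p-value was computed, and a difference between the libraries has no replicate check. Exact 95% intervals stand in parentheses and cover the error of counting alone, and no spread between mice.

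Interferons alpha and beta bind the receptor of the chains Ifnar1 and Ifnar2. The kinases Jak1 and Tyk2 then activate a complex of transcription factors, to which Stat2 and Irf9 belong. The complex binds a DNA element called the interferon-stimulated response element (ISRE) in the promoters of effector genes. Interferon gamma uses a different receptor and acts at another element, the gamma-activated site (GAS), and many genes answer to both kinds of interferon. Among the effectors, the Ifit proteins bind foreign RNA, Rsad2 (viperin) makes a nucleotide that stops viral polymerases, Bst2 (tetherin) holds budding virus at the cell surface, Isg15 is a small protein that is attached to other proteins, and Usp18 removes Isg15 again and also blocks the interferon receptor.

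The promoters of 8 of the 9 genes were in the RefSeq promoter table for GRCm38.p6 (9 windows, since *Ifit2* has a pair of start sites). The 250 bases before each start were searched on both strands for the ISRE core GAAANNGAAA, which reads TTTCNNTTTC on the other strand. The core was found for 5 of the 8 genes, while 3.46% of the 27025 genes in the table had it in a window of this length. These are the sequences of the 5 genes, each with 25 bases on either side of the matches, shown because they are the element through which the pathway is known to act. They are written 5′ to 3′ on the strand of the gene, and capitals mark every base that belongs to a match.

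Isg15: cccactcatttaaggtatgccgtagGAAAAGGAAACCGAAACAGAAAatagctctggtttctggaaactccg
Ifit1: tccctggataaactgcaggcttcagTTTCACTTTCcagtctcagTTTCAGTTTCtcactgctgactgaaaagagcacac
Ifit3: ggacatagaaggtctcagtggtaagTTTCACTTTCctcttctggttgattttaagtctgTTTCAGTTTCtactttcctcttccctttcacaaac
Rsad2: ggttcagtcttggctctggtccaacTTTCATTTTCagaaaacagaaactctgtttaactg
Bst2: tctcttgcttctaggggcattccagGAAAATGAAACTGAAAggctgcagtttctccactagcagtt

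The *Isg15* stretch lies at chr4:156200850-156200921 on the minus strand and holds 3 overlapping matches. *Ifit1* (chr19:34640760-34640838, plus strand) and *Ifit3* (chr19:34583348-34583441, plus strand) each hold 2 separate matches, and both genes have the same pair of matched letters, TTTCACTTTC and TTTCAGTTTC. *Rsad2* (chr12:26456538-26456597, minus strand) holds 1 match, and *Bst2* (chr8:71537562-71537627, minus strand) holds 2 that overlap. The nearest match began 66 bases before the start in *Isg15*, 85 in *Ifit1*, 122 in *Ifit3*, 120 in *Rsad2* and 124 in *Bst2*. *Ifit2*, *Oasl2* and *Ifi44* did not hold these exact letters within the windows. The GAS core TTCNNNGAA was found in the windows of *Ifit2* and *Bst2*, against 8.13% of all genes in the table. A match is a description of letters and does not show that a factor was bound.

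Across cell classes, the summed level of the 9 genes spanned 57.9 to 3194 CPM over the 21 combinations of class and library that had at least 50 cells. Mature neutrophil-like cells of the CFA library were highest at 3194 CPM (3061 to 3332). Endothelial-like cells followed in both libraries, with 1479 (1450 to 1507) in CFA and 1347 (1317 to 1377) in PBS. Fibroblast-like cells of the CFA library came next at 1159 (1131 to 1188), ahead of macrophage-like cells of the CFA library at 1021 (991 to 1053). The same fibroblast-like class stood at rank 14 of 21 in the PBS library, with 267 (254 to 282). The lowest levels were those of B cell-like cells in CFA at 69.98 (50.6 to 94.3) and of satellite cell-like cells in PBS at 57.9 (36.3 to 87.6). Of the 20 pairs of neighbours in this order, 10 had overlapping intervals, among them each pair from mural-like CFA cells at rank 7 to immature neutrophil-like CFA cells at rank 12.

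**Figure D1:**
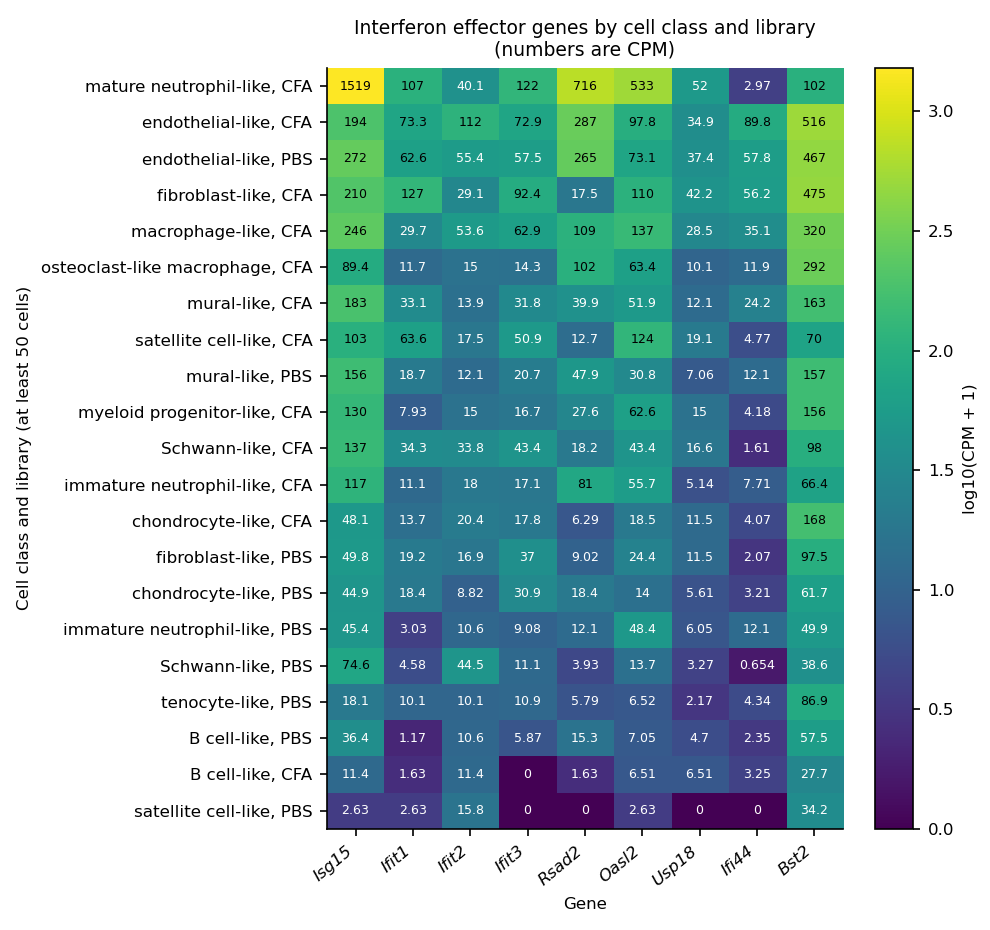
Level of each effector gene (columns) in each cell class and library with at least 50 cells (rows, ordered by the summed level), printed as CPM and coloured as log10(CPM + 1). *Isg15*, *Rsad2* and *Oasl2* peak in the mature neutrophil-like row, *Bst2* in the endothelial-like CFA row, and the fibroblast-like row moves from the lower part in PBS to the upper part in CFA.

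Each gene had its own profile over the classes. *Isg15* (ENSMUSG00000035692, chr4:156199424-156200818, minus strand) was at 1519 CPM (1427 to 1615) in mature neutrophil-like cells of the CFA library and at 272 (258 to 285) in endothelial-like cells of the PBS library. *Rsad2* (chr12:26442746-26456452) showed a similar pair of high classes, with 716 (653 to 783) in those neutrophil-like cells and 287 (275 to 300) in endothelial-like cells of the CFA library. In contrast, *Bst2* (chr8:71534255-71537456) was at 516 (500 to 534) in endothelial-like and 475 (457 to 494) in fibroblast-like cells of the CFA library, and at 102 (79.7 to 130) in the neutrophil-like cells. *Ifi44* (chr3:151730922-151749960), whose product gathers into structures in the cytoplasm, reached 89.8 (83.0 to 97.1) in endothelial-like cells of the CFA library, but only 2 of its UMIs were counted in the mature neutrophil-like cells of that library. *Ifit2* (chr19:34550694-34576419) was likewise highest in endothelial-like cells of the CFA library at 112 (105 to 120). Its neighbours on chromosome 19 differed from it: *Ifit1* (chr19:34640871-34650009) and *Ifit3* (chr19:34583531-34588731) had their highest values in fibroblast-like and mature neutrophil-like cells of the CFA library, and the order of these classes was not resolved for either gene. *Ifit1* was at 127 (118 to 137) and 107 (83.7 to 135) in them, and *Ifit3* at 92.4 (84.5 to 100.8) and 122 (96.8 to 151), with overlapping intervals. *Ifit3* has a near-identical neighbour, *Ifit3b*, so its counts depend on how reads shared by both were assigned. *Oasl2* (chr5:114896936-114912234), which resembles the enzymes that make the messenger for RNA decay, reached 533 (479 to 591) in the neutrophil-like cells. *Usp18* (chr6:121245906-121270917) reached at most 51.97 CPM (36.2 to 72.3), in the same neutrophil-like cells, and all of its 20 neighbouring pairs overlapped. On the other strand it overlaps the gene Gm44148. Over the 21 combinations, the pair of *Ifit1* and *Ifit3* was most alike (Pearson's r of log2 levels of 0.945) and the pair of *Ifi44* and *Isg15* least alike (0.465). This is a description, since the points share 2 libraries.

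The main comparison asked how far each class of the CFA library differed from the same class of the PBS library. There were 8 classes with at least 50 cells in both: endothelial-, Schwann-, fibroblast-, mural-, chondrocyte-, B cell-, immature neutrophil- and satellite cell-like. A gene entered where the class held at least 20 of its UMIs over both libraries, and it was called where the ratio of CFA to PBS was at least 2 or at most 0.5.

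Fibroblast-like cells showed higher levels of all 9 genes in the CFA library. Of the 9 genes, all of which passed the minimum, 7 were at least 2-fold higher and none was 2-fold lower, where 7.40% of the 13030 genes that entered were at least 2-fold higher and 5.51% at least 2-fold lower. Of the 7, *Ifi44* (11 and 305 UMIs) met the minimum only through the CFA library. With at least 10 UMIs in each library, 7 genes were called as well. The median ratio of the 9 genes was 4.21, against 0.989 over all genes that entered. The summed level was 267 CPM (254 to 282) in PBS and 1159 (1131 to 1188) in CFA, a ratio of 4.34 (4.09 to 4.60). The levels of the libraries did not overlap within their counting intervals for any of the 9 genes.

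The ISG15 system was higher in fibroblast-like cells of the CFA library for both of its members. *Isg15* stood at 49.8 CPM (44.0 to 56.2) in PBS and 209.7 (198 to 222) in CFA, with a ratio of 4.21 (3.68 to 4.83). *Usp18* stood at 11.5 (8.77 to 14.7) and 42.2 (36.9 to 48.1), with a ratio of 3.68 (2.77 to 4.97). The modifier and the enzyme that removes it thus had ratios whose intervals overlapped.

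Of the RNA-binding Ifit proteins, *Ifit1* was at 19.2 CPM (15.6 to 23.3) in PBS and 127 (118 to 137) in CFA, a ratio of 6.65 (5.39 to 8.27). *Ifit3* was at 37.0 (32.03 to 42.6) and 92.4 (84.5 to 100.8), a ratio of 2.50 (2.11 to 2.96). *Ifit2* was at 16.9 (13.6 to 20.8) and 29.1 (24.8 to 34.0), a ratio of 1.72 (1.32 to 2.26) that stayed under 2. The interval of *Ifit1* lay above those of both neighbouring genes.

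The remaining effectors spread from a ratio under 2 to the highest of all. *Ifi44* was at 2.07 CPM (1.03 to 3.70; 11 UMIs) in PBS and 56.2 (50.1 to 62.9; 305 UMIs) in CFA, and its ratio of 27.2 (14.99 to 55.1) lay above that of 99.4% of the genes that entered. It met the minimum only through the CFA library, so this rank is a description. *Oasl2* was at 24.4 (20.4 to 29.0) and 109.7 (101 to 119), a ratio of 4.49 (3.71 to 5.47). *Bst2* was at 97.5 (89.3 to 106.3) and 475 (457 to 494), a ratio of 4.87 (4.43 to 5.36). *Rsad2* had few UMIs in this class, with 9.02 (6.65 to 12.0) and 17.5 (14.2 to 21.4), a ratio of 1.94 (1.36 to 2.81). *Rsad2* was thus the effector with a high level in neutrophil-like and endothelial-like cells and a low level in fibroblast-like cells of both libraries.

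**Figure D2:**
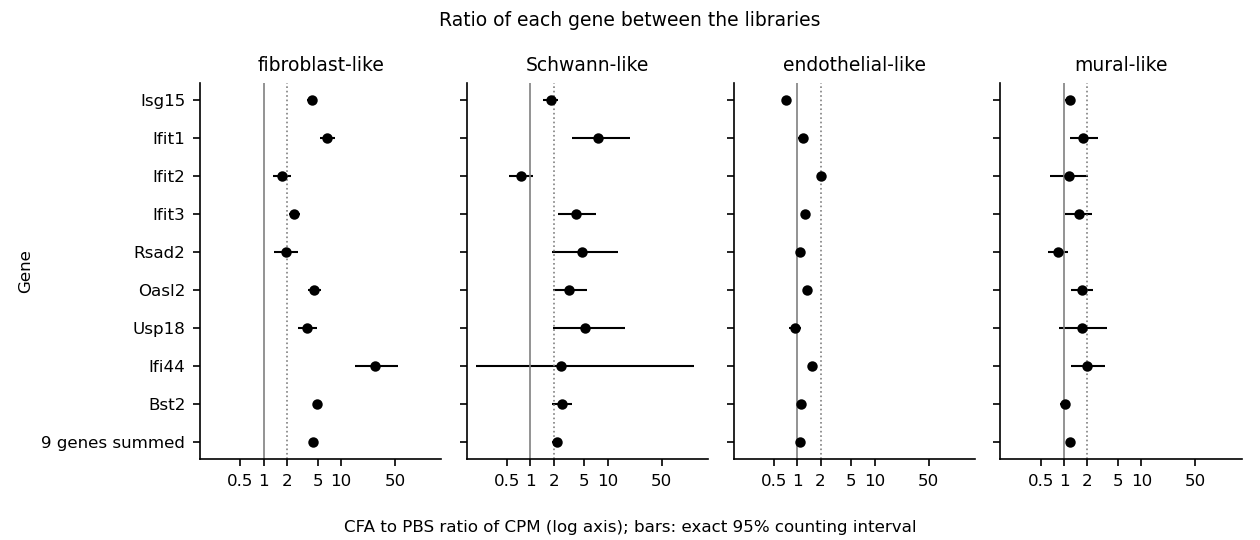
Ratio of CFA to PBS CPM for each gene and for the 9 genes summed in 4 cell classes, on a log axis; bars are exact 95% counting intervals, the solid line marks 1 and the dotted line 2. All fibroblast-like points lie to the right of 1, most Schwann-like points do, and the endothelial-like points lie between 0.714 for *Isg15* and 2.03 for *Ifit2*.

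The fibroblast-like class was made of the same 3 clusters in different proportions in the libraries, so the ratio was also taken within each. The cluster led by *Apod* and *Inmt* held 213 PBS and 149 CFA cells, the cluster led by *Pi16* and *Mfap5* 132 and 159, and the cluster led by *Angptl1* and *Cilp* 127 and 59. In the *Pi16* cluster the summed level was 225 CPM (204 to 248) in PBS and 1461 (1419 to 1504) in CFA, a ratio of 6.49 (5.86 to 7.20), and 8 of 9 genes were at least 2-fold higher, where 7.97% of all genes that entered were at least 2-fold higher and 5.85% at least 2-fold lower. In the *Angptl1* cluster it was 146 (129 to 166) and 853 (794 to 914), a ratio of 5.82 (5.04 to 6.75), with 7 of 9 genes at least 2-fold higher against 4.73% of all genes, and 6.01% of all genes at least 2-fold lower. In the *Apod* cluster it was 413 (384 to 443) and 672 (629 to 717), a ratio of 1.63 (1.48 to 1.79), with 4 of 9 genes at least 2-fold higher against 9.43% of all genes, and 6.10% of all genes at least 2-fold lower. Some of these genes had too few PBS UMIs to meet the minimum without the CFA library. Among them was *Ifi44*, with 2 and 259 UMIs in the *Pi16*, 4 and 19 in the *Angptl1* and 5 and 27 in the *Apod* cluster. In the *Angptl1* cluster they also took in *Ifit1* (2 and 134 UMIs), *Usp18* (7 and 36) and *Ifit3* (8 and 38). The counts of genes by cluster are therefore a description. Each of the 3 clusters was higher in CFA, and the *Apod* cluster was the highest of the 3 in PBS and the lowest in CFA.

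Single genes followed their own course within these clusters. *Ifi44* had 2 UMIs in the *Pi16* cluster of the PBS library and 259 in that of the CFA library, a ratio of 73.1 (20.05 to 607). *Ifit1* had 2 UMIs in the *Angptl1* cluster of the PBS library and 134 in that of the CFA library, a ratio of 120.0 (32.6 to 1001). In the *Apod* cluster *Ifit1* was at 39.6 CPM and 99.99, a ratio of 2.52 (1.89 to 3.39). *Ifit3* was lower in the CFA library there, with 84.6 and 58.8, a ratio of 0.695 (0.525 to 0.915). *Isg15* in the same cluster was at 79.3 and 93.4, a ratio of 1.18 (0.922 to 1.501), while it was 6.40-fold (5.07 to 8.18) and 6.10-fold (4.20 to 9.05) higher in the *Pi16* and *Angptl1* clusters. A single cell held 15.3% of the UMIs of the 9 genes in the fibroblast-like class of the PBS library, and without the cell with the most such UMIs in each library the ratio of the class was 4.95.

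Endothelial-like cells, in contrast, had high levels in both libraries. Of the 9 genes, 1 was at least 2-fold higher in CFA and none 2-fold lower, where 5.30% of the 12705 genes that entered were at least 2-fold higher and 5.59% at least 2-fold lower. The summed level was 1347 CPM (1317 to 1377) in PBS and 1479 (1450 to 1507) in CFA, a ratio of 1.10 (1.07 to 1.13). A single CFA cell held 5.47% of the UMIs of the 9 genes in that library's endothelial-like cells. Without the cell with the most such UMIs in each library the summed ratio was 1.06, below that counting interval. The median ratio of the 9 genes was 1.17, against 1.002 over all genes. *Ifit2* was the gene past 2-fold, with 55.4 (49.5 to 61.8) in PBS and 112 (105 to 120) in CFA, a ratio of 2.03 (1.78 to 2.31). It lay at the limit, and none of the 9 genes was past 2-fold when both libraries were merged without integration, with a mitochondrial limit of 5%, with each cell classed on its own or without the top 5% of doublet scores. *Ifi44* followed with 57.8 (51.8 to 64.3) and 89.8 (83.0 to 97.1), a ratio of 1.55 (1.36 to 1.78). *Isg15* was lower in CFA, with 272 (258 to 285) and 194 (184 to 204), a ratio of 0.714 (0.664 to 0.768). For *Usp18*, at 37.4 (32.6 to 42.7) and 34.9 (30.6 to 39.5), the interval of the ratio held 1 (0.933, 0.774 to 1.12).

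The remaining 5 genes of endothelial-like cells had ratios between 1.09 and 1.34, each with an interval above 1. These intervals cover counting alone and not the weight of the single CFA cell named above. They therefore do not show a shift across the class. *Rsad2* was at 265 CPM (252 to 278) in PBS and 287 (275 to 300) in CFA, and *Bst2* was at 467 (449 to 484) and 516 (500 to 534). *Oasl2* was at 73.1 (66.3 to 80.4) and 97.8 (90.6 to 105), *Ifit1* at 62.6 (56.4 to 69.4) and 73.3 (67.1 to 79.9), and *Ifit3* at 57.5 (51.5 to 64.0) and 72.9 (66.7 to 79.5). *Isg15* was therefore the one gene of this class with an interval under 1.

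The endothelial-like clusters did not share 1 direction. The cluster led by *Plvap* and *Selp* had 1103 CPM (1049 to 1158) in PBS and 1576 (1530 to 1623) in CFA, a ratio of 1.43 (1.35 to 1.51), and 6 of its 9 genes had an interval above 1. The cluster led by *Nebl* and *Sema3g* had 1828 (1747 to 1911) in PBS, the highest of the 5 clusters there, and 1261 (1195 to 1330) in CFA, the lowest, a ratio of 0.690 (0.643 to 0.740). In that cluster 5 of 9 genes had an interval under 1, and *Isg15*, at 477 and 237 CPM, was 2-fold lower (0.497, 0.426 to 0.579), where 5.81% of all genes that entered were at least 2-fold lower and 5.82% at least 2-fold higher. The clusters led by *Ccdc85a*, by *Timp4* and by *Btnl9* had ratios of 1.11 (1.03 to 1.19), 1.12 (1.05 to 1.202) and 1.14 (1.05 to 1.24). The interval of the *Isg15* ratio held 1 in the *Ccdc85a* cluster (0.968, 0.811 to 1.16) and in the *Plvap* cluster (0.908, 0.784 to 1.05). It lay under 1 in the *Timp4* cluster (0.662, 0.545 to 0.801) and in the *Btnl9* cluster (0.738, 0.599 to 0.908). *Ifit2* was at least 2-fold higher in 4 of the 5 clusters, with 3.27 (2.31 to 4.73) in the *Plvap* cluster and 0.954 (0.711 to 1.28) in the *Nebl* cluster. At least 2-fold higher were 1 of 9 genes in the *Ccdc85a* cluster (6.18% of all genes, with 7.92% lower), 2 in the *Timp4* cluster (5.19%, with 6.10% lower), 1 in the *Btnl9* cluster (5.74%, with 8.53% lower) and 1 in the *Plvap* cluster (5.48%, with 6.18% lower), and none was 2-fold lower in these.

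**Figure D3:**
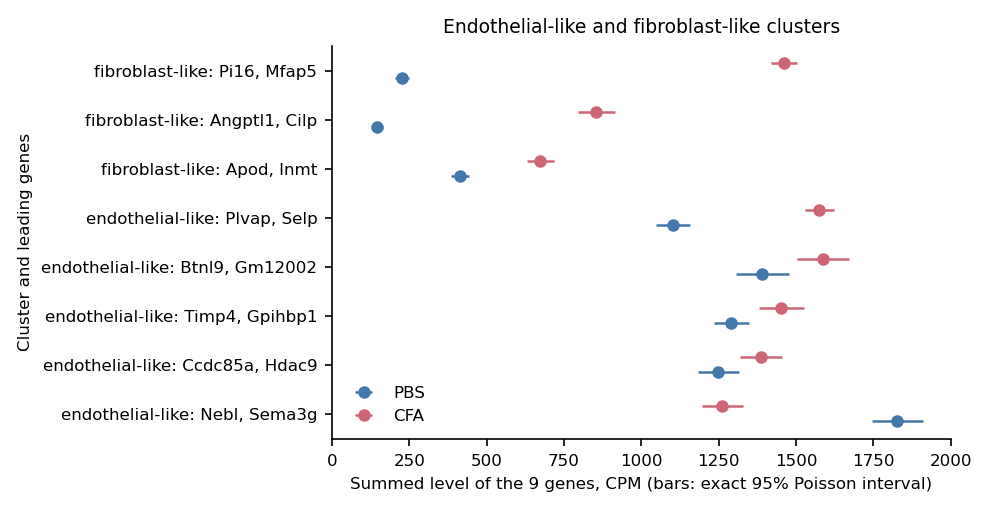
Summed level of the 9 genes in CPM (x axis) in each endothelial-like and fibroblast-like cluster (y axis, named by its leading genes), with PBS and CFA as points and exact 95% Poisson intervals as bars. The CFA point lies to the right of the PBS point in every cluster but the *Nebl* cluster, and the distance is widest in the *Pi16* cluster.

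Schwann-like cells had low levels and higher values in CFA for 8 of the 9 genes. The minimum of 20 UMIs was met by 8 genes, of which 6 were at least 2-fold higher, where 8.46% of the 10818 genes that entered were, and none was 2-fold lower (2.94% of all genes). Some of these genes could meet the minimum only through the CFA library, among them *Ifit1*, *Rsad2* (6 and 34 UMIs) and *Usp18* (5 and 31 UMIs), so the count is a description, and with at least 10 UMIs in each library 3 genes were called. The summed level was 195 CPM (173 to 218) in PBS and 426 (397 to 457) in CFA, a ratio of 2.18 (1.91 to 2.50). *Ifit1* was at 4.58 (1.84 to 9.44; 7 UMIs) in PBS and 34.3 (26.4 to 43.8; 64 UMIs) in CFA, a ratio of 7.49 (3.43 to 19.4). *Isg15* was at 74.6 (61.5 to 89.6) and 137 (120 to 154), a ratio of 1.83 (1.46 to 2.30), and *Bst2* at 38.6 (29.4 to 49.8) and 98.0 (84.4 to 113), a ratio of 2.54 (1.88 to 3.47). *Ifit2* was the gene with a lower value in CFA, with 44.5 (34.6 to 56.4) and 33.8 (25.9 to 43.2), and the interval of its ratio held 1 (0.759, 0.530 to 1.08). *Ifi44* had 1 and 3 UMIs and did not meet the minimum. Averaging over cells in place of summing gave a ratio of 1.76 for the class.

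Satellite cell-like cells, the *Pax7* stem cells of muscle, held 22 UMIs of the 9 genes in 56 PBS cells and 293 in 89 CFA cells. The summed level was 57.9 CPM (36.3 to 87.6) in PBS and 466 (414 to 523) in CFA, a ratio of 8.05 (5.22 to 13.05). The minimum was met by 5 genes, all of them at least 2-fold higher, where 8.86% of the 6446 genes that entered were, and none was 2-fold lower (6.97% of all genes). A gene with few UMIs in PBS could meet the minimum only through the CFA library, so this count is given as a description. *Oasl2* had 1 and 78 UMIs, a ratio of 47.1 (8.22 to 1886), and *Isg15* 1 and 65 UMIs, a ratio of 39.3 (6.81 to 1575). *Ifit3* had 0 and 32 UMIs. Taking 3 counts in place of the count of 0 in the PBS library gave a ratio of 6.45, and the exact interval of the ratio began at 4.95. *Bst2* was at 34.2 (18.2 to 58.5) and 69.98 (50.8 to 93.9), a ratio of 2.05 (1.08 to 4.14).

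Mural-like cells of the vessel wall had 462 CPM (433 to 493) in PBS and 553 (522 to 584) in CFA, a ratio of 1.195 (1.10 to 1.30). None of the 9 genes was called in either direction, where 3.73% of the 11108 genes that entered were at least 2-fold higher and 5.29% at least 2-fold lower. *Ifi44*, at 12.1 (7.75 to 18.0) and 24.2 (18.2 to 31.6), was nearest to the limit, with a ratio just under it (interval 1.22 to 3.38). The class held clusters with opposite directions: the one led by *Myh11* had 575 (532 to 620) in PBS and 421 (390 to 453) in CFA, and the one led by *Actg2* and *Rgs5* had 302 (265 to 342) and 902 (829 to 981). Leaving out the cells in the top 5% of doublet scores turned the ratio of the class to 0.918. Neutrophil markers moved in this class too: the 7 mature ones summed to 73.1 CPM in PBS, with *Csf3r* and *Cxcr2* at 0, and to 2120 in CFA, with none at 0, and the 6 immature ones to 34.3 and 443, with *Fcnb* at 0 in CFA. Their part in the levels of the 9 genes was not tested.

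Chondrocyte-like, immature neutrophil-like and B cell-like cells gave values that depended on few cells or on the clustering. Chondrocyte-like cells had 206 CPM (189 to 225) in PBS and 309 (288 to 330) in CFA, a ratio of 1.499 (1.34 to 1.68), and a single PBS cell held 54.9% of the PBS UMIs of the 9 genes. Without the cell with the most such UMIs in each library the ratio was 3.02, and it reached 7.79 when cells were classed one by one (38 PBS and 35 CFA cells). Of the 8 genes that met the minimum, *Bst2*, *Ifit2* and *Usp18* were at least 2-fold higher and *Rsad2* was 2-fold lower, where 4.18% and 7.42% of the 11202 genes that entered were. The direction of *Rsad2* (46 and 17 UMIs, a ratio of 0.341, 0.183 to 0.607) was not stable: it was at 2.75 with the interferon genes kept in the clustering, 2.80 with a mitochondrial limit of 5%, 2.96 when cells needed 1000 or more genes, and 1.22 once the top 5% of doublet scores were left out. No gene was 2-fold lower under these settings, nor when the libraries were merged without integration or each cell was classed on its own. *Bst2*, a gene spread over more cells, was at 61.7 (52.4 to 72.3) in PBS and 168 (153 to 185) in CFA, a ratio of 2.73 (2.27 to 3.30). Without *Bst2* the ratio of the other genes summed was 0.973 in this class, and its interval held 1 (0.840 to 1.13). A single PBS cell held 60.8% of the PBS UMIs of these other genes, and this ratio was not recomputed without that cell. The 7 mature neutrophil markers summed to 44.5 CPM in PBS, with *Mmp8* and *Cxcr2* at 0, and to 1497 in CFA, with none at 0, and the 6 immature ones to 14.4, with *Fcnb* at 0, and 869, with none at 0. Their part in the levels of this class was not tested.

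Immature neutrophil-like cells had 197 CPM (164 to 234) in PBS and 379.7 (355 to 406) in CFA, a ratio of 1.93 (1.60 to 2.34). *Isg15*, *Ifit1* and *Rsad2* were at least 2-fold higher of the 8 genes that met the minimum, where 7.80% of the 8628 genes that entered were at least 2-fold higher, and none was 2-fold lower (11.2% of all genes). *Ifit1* (2 and 26 UMIs) and *Rsad2* (8 and 189 UMIs) met the minimum only through the CFA library. With at least 10 UMIs in each library 1 gene was called, and none was without the hemoglobin limit or with each cell classed on its own. In the CFA library 8 of the 166 cells held 50 percent of the UMIs. Without the hemoglobin limit, when the class took in 565 PBS cells, the ratio was 0.915.

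B cell-like cells had 141 CPM (117 to 169) in PBS and 69.98 (50.6 to 94.3) in CFA, a ratio of 0.497 (0.342 to 0.709). Only *Isg15* and *Bst2* met the minimum, and both were at least 2-fold lower, where 5.35% of the 7815 genes that entered were at least 2-fold lower and 3.26% at least 2-fold higher. With at least 10 UMIs in each library 1 of them was called. *Isg15* was at 36.4 (24.7 to 51.7; 31 UMIs) in PBS and 11.4 (4.58 to 23.5; 7 UMIs) in CFA. In the PBS library a single cell held 27.5% of the UMIs of the 9 genes. When both libraries were merged without integration, the class of this name (233 PBS and 157 CFA cells) had a ratio of 4.10.

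Other classes had fewer than 50 cells in 1 of the libraries, and their levels are set side by side without a comparison. Mature neutrophil-like cells (16 PBS and 181 CFA cells) had 2443 CPM (2123 to 2797) in PBS and 3194 (3061 to 3332) in CFA. *Isg15* was at 1099 (888 to 1344) and 1519 (1427 to 1615) there, so the class was high in both libraries, although 1 PBS cell held 48.8% of its UMIs. Macrophage-like cells (20 and 304) had 862 (758 to 977) and 1021 (991 to 1053). The osteoclast-like macrophages led by *Mmp12* and *Dcstamp* (1 PBS and 283 CFA cells) had 610 (594 to 626) in CFA, and *Bst2* made up 2787 of their 5821 UMIs. Tenocyte-like cells (123 and 48) had 155 (135 to 177) in PBS and 1153 (1071 to 1241) in CFA, with *Bst2* at 86.9 (72.0 to 104) and 719 (654 to 789). Osteoblast or osteocyte-like cells (35 and 27) went the other way, with 550 (489 to 618) in PBS and 176 (142 to 216) in CFA.

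The summed levels could come from a few cells or from many, so each cell was thinned at random to 2000 UMIs and the number of the 9 genes with a UMI was counted. At least 3 of the genes were found in 24.7% (21.6 to 28.1) of 704 endothelial-like PBS cells and in 26.6% (23.9 to 29.5) of 969 such CFA cells. In fibroblast-like cells the share was 2.01% (0.923 to 3.78) of 448 PBS cells and 16.7% (12.9 to 21.0) of 348 CFA cells. Schwann-like cells had 1.79% (0.584 to 4.13) and 2.26% (0.913 to 4.60), a difference not detectable at this depth, while a UMI of at least 1 of the genes was found in 22.2% (17.5 to 27.6) of the PBS cells and 36.5% (31.1 to 42.1) of the CFA cells. Mature neutrophil-like CFA cells had 36.3% (28.2 to 45.01), and macrophage-like CFA cells 16.8% (12.7 to 21.6). B cell-like cells had 0.690% (0.0175 to 3.78) in PBS and 0 of 90 cells (0 to 4.02) in CFA. Thinning left out 24 PBS and 19 CFA fibroblast-like cells and 52 PBS and 171 CFA endothelial-like cells.

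**Figure D4:**
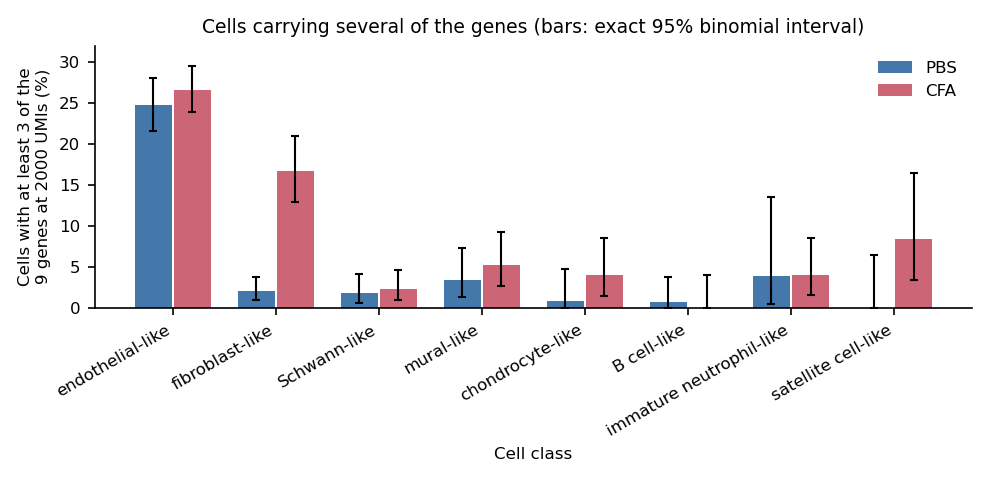
Share of cells, in percent, with a UMI of at least 3 of the 9 genes after thinning to 2000 UMIs per cell (y axis), for the 8 compared classes (x axis) in PBS and CFA; black bars are exact 95% binomial intervals. Endothelial-like bars stand near 25% in both libraries, and the fibroblast-like bar is 2.01% in PBS and 16.7% in CFA.

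At 1000 UMIs per cell, a UMI of any of the 9 genes was found in 16.2% (13.01 to 19.9) of 468 fibroblast-like PBS cells and in 44.8% (39.6 to 50.1) of 357 CFA cells. As counted, without thinning, these shares were 61.2% and 86.1%, at median depths of 11278.5 and 12887 UMIs. Endothelial-like cells had 61.6% (58.0 to 65.1) and 64.2% (61.2 to 67.0) at 1000 UMIs, and 90.5% and 90% as counted. None of the classes was chosen as lacking these genes, and B cell-like cells served as a low reference, with 8.16% (4.29 to 13.8) and 8.89% (3.92 to 16.8) at 1000 UMIs and median depths of 3944 and 4736. Fibroblast-like cells lay above this reference in the CFA library. *Bst2* alone was found in 6.62% (4.54 to 9.27) and 22.7% (18.4 to 27.4) of fibroblast-like cells at 1000 UMIs, and *Ifit1* in 1.92% (0.883 to 3.62) and 9.52% (6.69 to 13.1).

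The cells that together held 50 percent of the UMIs of the 9 genes were 14.2% of endothelial-like PBS cells and 11.9% of the CFA cells. In fibroblast-like cells they were 5.30% of the PBS cells and 10.6% of the CFA cells. In Schwann-like cells they were 5.54% and 6.63%. These shares were taken without thinning. Fibroblast-like cells held 1423 such UMIs in PBS and 6287 in CFA, and fewer UMIs per cell can by themselves give a smaller share. The shares therefore do not show whether the spread over cells differed between the libraries.

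The other genes of the pathway were taken from lists and counted in the same way. The lists and the 9 genes were chosen with earlier results of these data known, so their counts are a description. Ligands came first. Of the 18 type I interferon genes in the table, *Ifnb1* had 1 UMI, *Ifnz* 1 and *Ifnk* 8 among the 4014 CFA cells, and no UMI of any of the 18 was found among the 2667 PBS cells, which allows up to 0.112% of cells with a UMI of each gene and sets no limit on the share of cells that express it. *Ifng*, which encodes interferon gamma, had 2 UMIs in 2 PBS cells and 258 UMIs in 24 CFA cells, of which 9 lay in unnamed clusters. Type III interferon genes had no UMI.

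Receptor and kinase levels differed little. In fibroblast-like cells *Ifnar1* was at 26.1 CPM in PBS and 34.3 in CFA, a ratio of 1.31 (1.05 to 1.65), and *Ifnar2* at 122 and 168, a ratio of 1.37 (1.24 to 1.52). *Jak1* had a ratio of 0.746 (0.711 to 0.783) there. None of the 4 genes was called in the fibroblast-, endothelial- or Schwann-like class, and their median ratios were 1.12, 0.922 and 0.967.

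The transcription factors *Irf7*, which amplifies the response, *Stat2* and *Irf9* were higher in fibroblast-like cells of the CFA library. *Irf7* was at 9.96 and 56.8 CPM, a ratio of 5.70 (4.25 to 7.79), and *Stat2* at 43.8 and 131, a ratio of 2.99 (2.57 to 3.48). *Irf9*, at 22.0 and 43.0 CPM, had a ratio of 1.95 (1.56 to 2.46). In endothelial-like cells *Irf7* had 66.6 and 59.7 CPM, a ratio of 0.896 (0.779 to 1.03), *Stat2* a ratio of 1.51 (1.37 to 1.66) and *Irf9* 0.920 (0.804 to 1.05). In Schwann-like cells *Stat2* had a ratio of 1.16 (0.915 to 1.46) and *Irf9* 1.41 (0.920 to 2.19).

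Of 4 genes for enzymes that attach Isg15, 3 were at least 2-fold higher in fibroblast-like cells and none 2-fold lower. Of all genes that entered, 7.40% were at least 2-fold higher there and 5.51% at least 2-fold lower. *Herc6*, the mouse ligase, was at 21.0 and 94.0 CPM, a ratio of 4.47 (3.64 to 5.53), *Ube2l6* had a ratio of 2.42 (1.97 to 3.00), *Trim25* 2.17 (1.71 to 2.76) and *Uba7* 1.54 (0.952 to 2.52). In endothelial-like cells *Herc6* was at 84.7 and 266, a ratio of 3.14 (2.85 to 3.48). It was the only one of the 4 past 2-fold, where 5.30% of all genes were at least 2-fold higher and 5.59% at least 2-fold lower. *Herc6* was therefore higher in CFA in a class whose *Isg15* level, taken over all its cells, was lower. Among 12 nucleic acid sensors and adaptors, 10 met the minimum in each of these classes. At least 2-fold higher were 6 in fibroblast-like cells (7.40% of all genes) and 2 in endothelial-like cells (5.30%), and none was 2-fold lower. Among the 6, a gene with 15 and 47 UMIs met the minimum only through the CFA library. *Zbp1*, a sensor of unusual nucleic acid helices, had the highest ratio in both classes, among those that had 10 or more UMIs in both libraries, with 7.54 (5.84 to 9.88) and 12.9 (8.18 to 21.4).

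Further effectors of type I interferon outside the 9 genes gave the same contrast of classes. Of 48 such genes in the table, 39 met the minimum in fibroblast-like cells and 25 of these were at least 2-fold higher (7.40% of all genes) and none 2-fold lower, with a median ratio of 3.01. Some of the 25 met the minimum only through the CFA library, so the count is a description. Among them were *Oas2* (10 and 123 UMIs) and genes with 1 and 22 and with 3 and 53 UMIs. Among those with 10 or more UMIs in both libraries, *Oas2* had the highest ratio of 12.1 (6.35 to 25.8) and *Ifi27* the lowest of 0.627 (0.575 to 0.683). In endothelial-like cells 40 met the minimum, 7 were at least 2-fold higher (5.30% of all genes) and 2 were 2-fold lower (5.59%), with a median of 1.04. Genes that lean to interferon gamma differed in both classes. Of 29 such genes, 24 were at least 2-fold higher in fibroblast-like cells (7.40% of all genes; median ratio 6.67) and 20 in endothelial-like cells (5.30%; median 2.63). None was 2-fold lower in either class. Some of these genes met the minimum only through the CFA library. Among them were genes with 0 and 171 and with 3 and 38 UMIs in fibroblast-like cells, and with 0 and 431 and with 8 and 115 UMIs in endothelial-like cells. The counts are therefore a description. *Gbp4*, a guanylate-binding protein gene, was at 91.6 and 744 CPM in endothelial-like cells, a ratio of 8.12 (7.43 to 8.90), and *Ubd* at 9.78 and 373, a ratio of 38.1 (29.3 to 50.5). In the same cells *Irf1* had the lowest ratio of this list, 0.738 (0.707 to 0.770). Endothelial-like cells thus combined a median of 2.63 for this list with 1.17 for the 9 effectors. Many genes answer to both interferons, and whether the lists differ between classes was not tested.

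**Figure D5:**
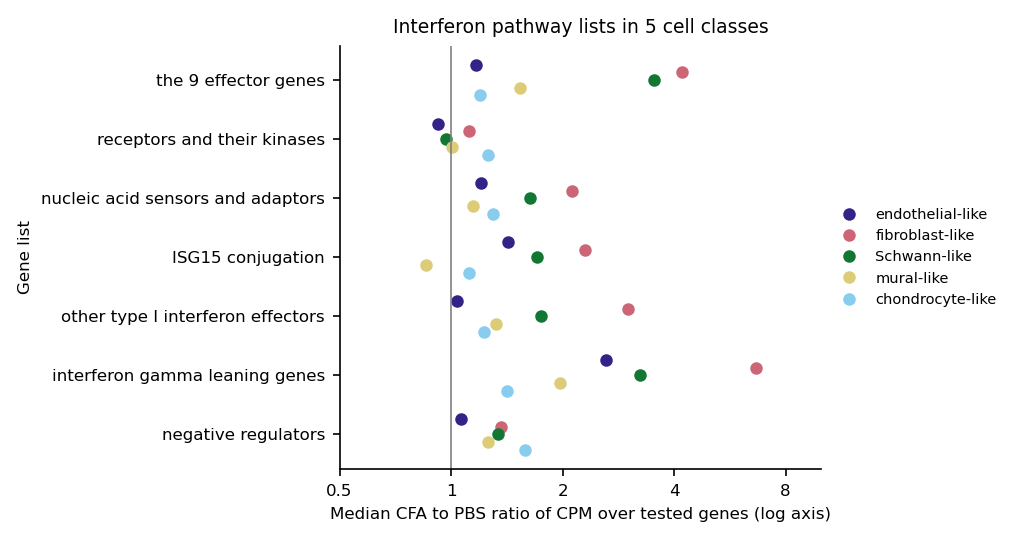
Median CFA to PBS ratio of CPM over the genes that met the minimum in each pathway list (x axis, log scale), with a coloured point for each of 5 cell classes. The endothelial-like point is at 1.17 for the 9 effectors and at 2.63 for the interferon gamma list, while the fibroblast-like points are at 4.21 and 6.67.

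Over the other classes, the interferon gamma list was at least 2-fold higher for 21 of 24 genes in Schwann-like cells (8.46% of all genes), 17 of 20 in satellite cell-like cells (8.86%) and 13 of 27 in mural-like cells (3.73%), and none was 2-fold lower in these. A gene with few PBS UMIs could meet the minimum only through the CFA library, so the counts are a description. In immature neutrophil-like cells 15 of 24 were higher (7.80%) and 2 lower (11.2%). In chondrocyte-like cells 5 of 25 were higher (4.18%) and 1 lower (7.42%), and the summed level of the list was 876 CPM in PBS and 839 in CFA. In B cell-like cells 4 of 18 were higher (3.26%) and 1 lower (5.35%). Of the negative regulators, 6 in number with *Usp18* among them, 2 were at least 2-fold higher in fibroblast-like cells (7.40% of all genes) and 1 in endothelial-like cells (5.30%). None was 2-fold lower in either class (5.51% and 5.59%). *Usp18* was 1 of the 2 in fibroblast-like cells. The other had 6 and 23 UMIs there, and the gene called in endothelial-like cells had 3 and 17. Neither could meet the minimum without the CFA library, so these counts are a description.

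The genes outside the 9 with the most similar pattern over the 21 combinations of class and library were *Gbp7*, *Gbp3*, *Rtp4*, *Ddx60* and *Rnf213*. Pearson's r of their log2 levels with the mean of the 9 genes was 0.958, 0.936, 0.932, 0.927 and 0.916, among 5552 genes that reached 100 CPM. The points share 2 libraries and the 5 genes were picked for the highest values, so no test was made. Among the 9 genes themselves, r with their own mean was between 0.723 for *Ifi44* and *Ifit2* and 0.934 for *Usp18*.

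Free RNA in the suspension adds UMIs to every cell, and the libraries differed in its sources. Barcodes with over 50% hemoglobin UMIs, which were not kept, carried *Isg15* at 3125 (3012 to 3242) and *Rsad2* at 1871 (1784 to 1961) CPM of their other UMIs in the PBS library, and at 3899 (3732 to 4070) and 3735 (3572 to 3903) in the CFA library. *Bst2* in these barcodes was at 57.7 (43.2 to 75.4) and 49.0 (32.02 to 71.8). The kept fibroblast-like cells carried 4387 hemoglobin UMIs in PBS and 1427 in CFA. At the number of *Isg15* UMIs per hemoglobin UMI found in those barcodes, these would bring 2.22% of the *Isg15* UMIs of fibroblast-like cells in PBS and 0.235% in CFA, and 0.559% and 0.372% of those of endothelial-like cells. For *Rsad2* in Schwann-like PBS cells, with 6 UMIs in all, the value was 32.8%.

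Markers of other classes were also summed within fibroblast-like cells. The 7 macrophage markers summed to 2.82 CPM in PBS, with *Cd163* and *Ms4a7* at 0, and to 40.9 in CFA, with *Cd163* at 0, which is 0.0307% and 0.648% of their level in macrophage-like cells of the same library. The 7 endothelial markers summed to 201 in PBS and 27.1 in CFA, 2.18% and 0.299% of the endothelial-like level. The 7 mature neutrophil markers summed to 425 and 125, 0.374% and 0.161% of the level in mature neutrophil-like cells. The 7 osteoclast-like markers were the exception to these low shares. They summed to 582, with *Dcstamp* and *Mmp12* at 0, and to 792, with none at 0, which is 31.6% of the level in the 1 PBS cell of that class and 7.82% of that in CFA. Macrophage markers were also higher in CFA in Schwann-like cells, with 1.96 and 41.8, and in satellite cell-like cells, with 2.63 and 28.6. The mature neutrophil markers were higher in CFA in endothelial-like cells, with 102 and 247, in Schwann-like cells, with 119.8 and 287, and in satellite cell-like cells, with 108 and 332. The part of these markers in the levels of the 9 genes was not tested.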

How the data were processed

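Dissociated TMJ cells of 1 PBS and 1 CFA library were sequenced on a droplet platform, and the methods name a version 3.1 kit where the labels name version 2. The authors aligned reads to the mouse genome GRCm38 (mm10) with Cell Ranger 7.0.1 and deposited the raw UMI counts per gene and barcode, which were used as deposited. The tables held 7671 PBS and 5709 CFA barcodes with 51146169 and 53517206 UMIs, and kept cells had median depths of 7022 and 6509.5 UMIs. Limits on genes and mitochondrial UMIs follow the methods, and the hemoglobin limit of 1% was added here. Each library was normalised with SCTransform and integrated in Seurat 5.3.0 (R 4.3.3) on 3000 features less 135 interferon-pathway genes, with 200 principal components and a resolution of 1.5. A marker was detected in a cluster at 25% of cells and 2-fold over the other cells with 10 CPM added. A cluster took the class with at least 3 detected markers that had the most markers among its top 10 genes. A first rule, the highest share of detected markers, was replaced once its names were known, and this changed 2 clusters. Doublets were scored with Scrublet (scanpy 1.11.5), which called 21 PBS and 2 CFA cells, and all were kept in the main values. Levels have exact Poisson intervals, shares exact Clopper-Pearson intervals and ratios exact conditional binomial intervals, all at 95% (scipy 1.17.1). A count of 0 was taken as 3 counts over the class in a ratio. The ratio step was tested on simulated data. All 9 genes are named. From each pathway list, at most the 2 highest and 2 lowest ratios with at least 10 UMIs in each library are named in endothelial-like and fibroblast-like cells, and genes of the ligand, receptor, transcription factor and ISG15 conjugation lists may all be named. The 5 genes with the most similar pattern were ranked by Pearson's r of log2(CPM + 10). The 9 genes, the lists and the tests were chosen with earlier results of these data known. Results for 1 further gene of the lists are not reported here.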

Additional observations from a re-analysis of the deposited data

Results flagged for a closer look

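None of the differences below was tested, since each condition has 1 library. The summed ratio of CFA to PBS was 0.497 in B cell-like cells, with an interval under 1, while every other compared class had an interval above 1. In chondrocyte-like cells the interval held 1 when *Bst2* was left out of the sum (0.973, 0.840 to 1.13). A single PBS cell held 60.8% of the PBS UMIs of the other genes there, and this ratio was not recomputed without that cell. The ratio of *Isg15* was 0.714 in endothelial-like cells and 4.21 in fibroblast-like cells, so the intervals lay on opposite sides of 1. Within the endothelial-like class, the summed ratio was 0.690 in the cluster led by *Nebl* and *Sema3g* and 1.43 in the cluster led by *Plvap* and *Selp*.

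Several clusters outside the comparison had the 9 genes at a higher level in the CFA library than in PBS. The summed level was 3194 CPM in mature neutrophil-like cells (2443 in PBS), 1153 in tenocyte-like cells (155), 1021 in macrophage-like cells (862), 985 in lymphatic endothelial-like cells (700.3) and 435 in myeloid progenitor-like cells (260.1). Among unnamed clusters it was 1444 in the one led by *Prg4* and *Slurp1* (7 CFA cells; 181 in 30 PBS cells), 760 in the one led by *Fabp5* and *Map1lc3a* (384), 405 in the one led by *Plppr1* and *Unc5d* (255.2) and 345 in the one led by *Tenm2* and *Cldn1* (8 CFA cells; 74.9 in 13 PBS cells). Other such clusters were lower in CFA: the summed level was 253 CPM in the unnamed cluster led by *Dok6* and *Gpc5* (58 CFA cells; 849 in 11 PBS cells) and 176 in osteoblast or osteocyte-like cells (550.3). Some of the levels above rest on few cells. Among lymphatic endothelial-like cells (18 PBS and 12 CFA), a single cell held 55.1% and 50.3% of the UMIs of the 9 genes. A single cell also held 48.8% of those of the 16 mature neutrophil-like PBS cells and 34.6% of those of the 20 macrophage-like PBS cells.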

How the results depend on the processing

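The summed ratio of fibroblast-like cells stayed at 2 or above under all 14 alternatives (3.90 to 5.69), as did that of satellite cell-like cells (4.41 to 10.5). That of Schwann-like cells was at 2 or above under 11 of 14 (1.76 to 2.20), and that of endothelial-like cells lay between 1.03 and 1.11. Over all 120 summed ratios recomputed, 80 stayed within the counting interval, 39 moved and 1 reversed. The label reversed was kept for results whose main ratio was at least 2 or at most 0.5. Among those counted as moved, some also fell under 1 from a main value above it. These were the mural-like ratio (0.918), the immature neutrophil-like ratio (0.915) and the *Nebl* cluster taken alone (0.690). Of 256 counts of called genes 215 stayed within 1.5 times, and of 1008 ratios of single genes 11 reversed. Where values moved, the cause was not tested. Depth limits the B cell-like values, which rest on 120 PBS and 43 CFA UMIs, and the satellite cell-like values, with 22 PBS UMIs. No paired analysis was possible because each condition has 1 library, and for the same reason no library could be left out.

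Log-normalized counts merged without integration gave summed ratios of 1.03 in endothelial-, 1.04 in mural-, 2.80 in chondrocyte-, 3.99 in immature neutrophil- and 4.41 in satellite cell-like cells, and 4.10 in B cell-like cells, where the direction turned. There *Isg15*, *Rsad2* and *Bst2* were at 1.90, 7.78 and 1.99 in B cell-like cells and *Ifit1* at 0.285 in immature neutrophil-like cells. The number of genes at least 2-fold higher was 0 in endothelial-, 1 in chondrocyte-, 7 in B cell- and 1 in immature neutrophil-like cells, and the number lower was 0 in chondrocyte- and B cell-like cells. With the interferon genes kept in the clustering, the summed ratio was 6.90 in chondrocyte- and 0.736 in B cell-like cells, 1 mural-like and 5 chondrocyte-like genes were higher, 0 were lower in both chondrocyte- and B cell-like cells, and *Rsad2* was at 2.75 in chondrocyte-like cells. At resolution 0.8 the chondrocyte-like ratio was 2.45 with 5 genes higher, and 1 mural-like gene was higher. With each cell classed on its own, ratios were 5.07 in fibroblast-, 1.51 in mural-, 7.79 in chondrocyte- and 1.27 in immature neutrophil-like cells, *Ifit1* was at 0.603 in the last, the genes higher were 0 in endothelial-, 4 in mural- and 0 in immature neutrophil-like cells, and the genes lower 0 in chondrocyte- and 1 in B cell-like cells.

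Without the hemoglobin limit, ratios were 5.69 in fibroblast-, 2.63 in chondrocyte-, 0.784 in B cell- and 0.915 in immature neutrophil-like cells, where *Isg15* was at 0.992, *Rsad2* at 0.537 and 0 genes were higher, and 1 mural-like gene was higher. With a mitochondrial limit of 5%, ratios were 6.19 in chondrocyte- and 0.737 in B cell-like cells, *Rsad2* was at 2.80 in chondrocyte-like cells, 0 endothelial-like genes were higher, and 0 chondrocyte-like and 1 B cell-like gene were lower. With at least 1000 genes per cell, ratios were 1.33 in mural-, 6.29 in chondrocyte- and 0.730 in B cell-like cells, *Rsad2* was at 2.96 in chondrocyte-like cells, 1 mural-like gene was higher, and 0 chondrocyte-like and 1 B cell-like gene were lower. With the top 5% of doublet scores left out, ratios were 0.918 in mural-, 1.74 in chondrocyte- and 2.37 in immature neutrophil-like cells, *Rsad2* was at 1.22 in chondrocyte-like cells, 0 endothelial-like genes were higher, and 0 chondrocyte-like and 1 B cell-like gene were lower. The mean over cells gave 3.90 in fibroblast-, 1.76 in Schwann-, 1.35 in mural-, 2.96 in chondrocyte- and 1.13 in immature neutrophil-like cells, with 2 mural-like and 7 chondrocyte-like genes higher and 1 immature neutrophil-like gene lower. Scaling by the median ratio of genes made 1 mural-like gene higher.

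At 1.5-fold, 2 endothelial-, 5 mural- and 5 immature neutrophil-like genes were higher, and 2 chondrocyte- and 1 immature neutrophil-like genes lower. With at least 10 UMIs in each library, 3 Schwann-, 1 immature neutrophil- and 1 satellite cell-like genes were higher and 1 B cell-like gene lower. The share of cells with a UMI of any of the genes was 81.1% and 83.5% of endothelial-like and 27.2% and 66.4% of fibroblast-like PBS and CFA cells at 2000 UMIs, and 90.5%, 90%, 61.2% and 86.1% without thinning.

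These alternatives were chosen after seeing the data. Without the cell with the most UMIs of the 9 genes in each class and library, ratios were 1.06 in endothelial-, 4.95 in fibroblast-, 3.02 in chondrocyte- and 2.39 in immature neutrophil-like cells. Single clusters gave 1.63, 5.82 and 6.49 within the fibroblast-like class and 0.690, 1.14 and 1.43 within the endothelial-like class. The first naming rule left the summed ratios of the 8 classes as they were.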
